A study of Mus musculus with 6 samples.

Results

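The genes described here encode the nuclear subunits of oxidative phosphorylation, the chain of mitochondrial enzyme complexes that makes ATP. Members were chosen by name: protein-coding genes of the Nduf, Sdh, Uqcr, Cox4 to Cox8 and Atp5 families together with Cyc1 and Cycs. The rule found 86 of the 55493 genes in the table. By name alone, 36 were counted in complex I, 4 in II, 9 in III, 18 in IV and 18 in V. Cytochrome c (Cycs) was the last. The complex that holds each protein was not checked, so that Ndufa4 was counted in complex I and Cox7a2l in complex IV by their names. RNA was sequenced from microglia, the macrophages that reside in brain tissue, which were gated on low CD45 and on CD11b. All mice were male ILT Telo Tg x 5XFAD animals, which carry a human LILR region as a transgene and the 5XFAD transgenes of an amyloid model of Alzheimer disease. Treatment began at 4 months of age and consisted of 8 intraperitoneal doses of 60 mg/kg, given weekly. The control group (labelled Ctrl IgG2a) received the Fc-mutant antibody 27D6, and the treated group (labelled anti-LILRB4) received ZM3.1, an Fc-mutant antibody against ILT3, another name of the inhibitory receptor LILRB4. The study asks what blocking LILRB4 in vivo does to the microglial transcriptome. Each group had 3 libraries. Nothing in the labels says whether each came from its own mouse, and the p-values therefore reflect a spread among libraries that may be technical.

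Complex I passes electrons from NADH to ubiquinone, complex II (succinate dehydrogenase) passes them from succinate to ubiquinone, complex III hands them to cytochrome c, and complex IV passes them to oxygen. Complexes I, III and IV pump protons across the inner membrane, and complex V, the ATP synthase, makes ATP from the returning flow. Most subunits are encoded in the nucleus, a core of complexes I, III, IV and V is encoded by mitochondrial DNA, and complex II is wholly nuclear. Microglia are known to rely on oxidative phosphorylation at rest and to turn towards glycolysis when activated.

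Library totals ran from 39805118 to 56345514 counts, and the members took 0.982% to 1.22% of them. Of the 86 members, 81 passed the filter on low counts, and 77 of these had over 1000 reads in every library, for which counting error is small. The summed level of the 10 microglial markers (all 10 found) was 40735 to 42555 CPM (counts scaled to library size) in controls and 42924 to 43841 CPM after anti-LILRB4. The summed level of the 11 neutrophil markers (11 found, 9 tested, none at 0 in all libraries) was 548 to 1298 CPM in controls and 125 to 1072 CPM after anti-LILRB4. The exons of 30 members overlap those of another gene, and the library kit does not mark strand, so those reads could be shared. The 18 pseudogenes named after members held 0.359% as many reads as the members.

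Many genes of this pathway are known targets of the factors NRF1, GABP and YY1, and the members were therefore compared for promoter sequence, which the choice of members did not use. RefSeq promoters (GRCm38.p6) were matched for 69 members, with 74 promoters between them. The letters GCGCATGCG (NRF1), ACTTCCGG (GABP) and AAGATGGC (YY1) were searched on both strands in windows of the same length. The NRF1 letters nearly equal their own reverse complement, so a stretch can match on both strands, and each promoter was counted once per motif. At least 1 of the 3 was present in 31.1% of the members' promoters and in 7.96% of all 32851 promoters. NRF1 letters stood in 12.2% against 1.75%, YY1 letters in 13.5% against 2.75% and GABP letters in 6.76% against 3.89%. In complex I the YY1 letters were the most frequent, in 20.6% of 34 promoters. The promoter of Uqcr11 held both NRF1 and GABP letters. A match is a description of the letters only. The 250 bases before the start are shown for 5 members. Ndufa10 and Cox7c are shown because they had an unadjusted p under 0.05 in opposite directions in the treatment comparison and a RefSeq promoter, and neither window held any of the 3 motifs. Cox6a1, Cycs and Atp5g2 are shown for their NRF1 letters, which are in capitals, with a flanking base where matches on both strands overlap.
Ndufa10 (chr1:92473759-92474008, minus strand): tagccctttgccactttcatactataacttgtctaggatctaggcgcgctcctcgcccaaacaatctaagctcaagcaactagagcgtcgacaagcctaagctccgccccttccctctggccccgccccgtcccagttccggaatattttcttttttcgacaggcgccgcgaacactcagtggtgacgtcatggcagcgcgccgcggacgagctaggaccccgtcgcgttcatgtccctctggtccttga
Cox7c (chr13:86046796-86047045, minus strand): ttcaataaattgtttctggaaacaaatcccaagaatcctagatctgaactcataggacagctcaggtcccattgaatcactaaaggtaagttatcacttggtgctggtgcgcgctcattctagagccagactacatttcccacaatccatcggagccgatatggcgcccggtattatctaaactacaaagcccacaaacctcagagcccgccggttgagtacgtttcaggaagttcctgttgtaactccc
Cox6a1 (chr5:115348959-115349208, minus strand): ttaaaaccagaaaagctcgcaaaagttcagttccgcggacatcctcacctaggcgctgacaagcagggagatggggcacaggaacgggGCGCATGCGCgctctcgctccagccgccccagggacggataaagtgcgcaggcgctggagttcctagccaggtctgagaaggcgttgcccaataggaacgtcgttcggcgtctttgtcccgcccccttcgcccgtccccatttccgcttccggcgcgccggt
Cycs (chr6:50566570-50566819, minus strand): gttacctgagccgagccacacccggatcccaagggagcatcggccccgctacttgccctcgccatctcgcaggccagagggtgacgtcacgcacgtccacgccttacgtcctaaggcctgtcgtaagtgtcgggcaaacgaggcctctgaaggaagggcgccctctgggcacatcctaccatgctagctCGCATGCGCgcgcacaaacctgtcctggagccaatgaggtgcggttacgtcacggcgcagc
Atp5g2 (chr15:102671048-102671297, minus strand): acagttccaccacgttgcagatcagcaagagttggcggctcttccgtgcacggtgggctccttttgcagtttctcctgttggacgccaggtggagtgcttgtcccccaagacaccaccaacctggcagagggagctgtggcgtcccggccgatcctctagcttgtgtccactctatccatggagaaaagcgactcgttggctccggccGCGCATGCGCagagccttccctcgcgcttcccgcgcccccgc

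No subunit passed the test for a difference between treated and control microglia. The edgeR quasi-likelihood test called 0 of the 81 tested members at a Benjamini-Hochberg adjusted p of 0.05, with a smallest adjusted p of 0.432, and it called 0% of the 18210 genes tested. DESeq2 called 0 members (smallest adjusted p 0.149, with 1 member given none) against 0.928% of all genes, and limma-voom also called 0 (smallest adjusted p 0.395). The authors' deposited table gives an adjusted p for 80 members, of which 0 were under 0.05 (smallest 0.139), against 0.981% of all genes. At an unadjusted edgeR p under 0.05, 1 member was higher (4.12% of all genes were) and 3 were lower (3.91% of all genes). The groups did not overlap, lower after treatment, for 6 members (7.79% of all genes) and, higher, for 2 (6.94% of all genes). These shares of the members are near or below those of all genes. The standard error of the log2 fold change had a median of 0.13 over the members, and 64 of 81 members had a fold change within 0.2 of zero on the log2 scale.

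By direction alone, 61 members (75.3%) were lower and 20 higher in anti-LILRB4 microglia. Of all genes tested 50.9% were lower, and of the protein-coding genes tested 47.1%. The members' median log2 fold change was -0.09, beside -0.01 over all genes tested and 0.02 over protein-coding genes. Upper quartile scaling gave 68 lower and 13 higher. Complex IV had the lowest median (-0.14, 12 of 14 members lower), followed by complex III (-0.09, 7 of 9), complex V (-0.08, 12 of 17), complex I (-0.07, 27 of 36) and complex II (-0.03, 2 of 4). The difference between complexes was not tested. Without control library 1, 43 members were higher and 38 lower, with a median of 0.02, and the medians of complexes I to V were 0.02, 0.04, -0.02, -0.05 and 0.04. Without anti-LILRB4 library 2, 38 were higher and 43 lower, with a median of -0.02. Leaving out control 2, control 3, anti-LILRB4 1 or anti-LILRB4 3 gave 64, 61, 65 and 65 lower. The medians were then -0.13, -0.12, -0.09 and -0.14. The most negative medians of complexes I to V with 1 library left out were -0.14, -0.06, -0.14, -0.21 and -0.15. In these bulk samples fewer cells of a type and less RNA per cell cannot be told apart.

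**Figure D1:**
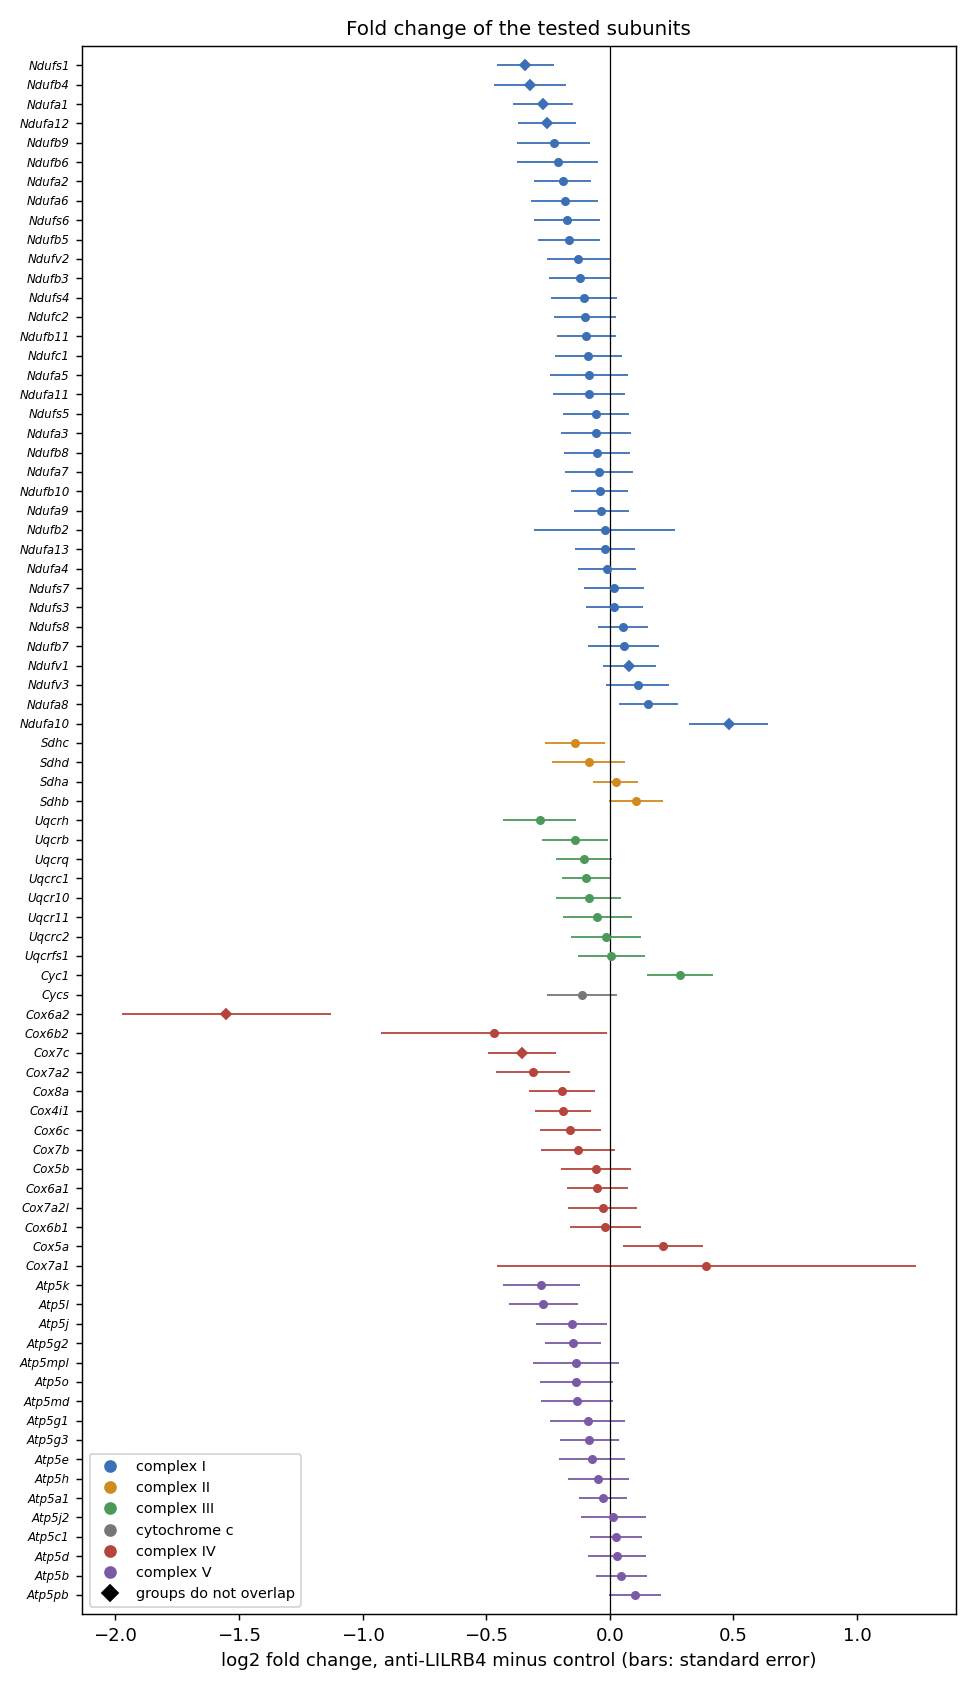
Log2 fold change (anti-LILRB4 minus control, x axis) of 80 of the 81 tested members with its standard error as a bar, coloured by complex. Diamonds mark the 8 members whose groups do not overlap, and most points lie within 0.2 of zero, with Cox6a2 far to the left at -1.55.

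Which libraries were high or low was shared across complexes. Levels per library were taken as the mean over members of log2 CPM minus each gene's control mean. Complex I stood at 0.17, -0.08 and -0.09 in control libraries 1 to 3 and at -0.07, -0.16 and 0.03 in anti-LILRB4 libraries 1 to 3. Complex II stood at 0.15, -0.10 and -0.06 in controls and at 0.01, -0.10 and 0.03 after treatment. Complex III gave 0.13, -0.06 and -0.07 against -0.01, -0.16 and 0.02. The groups overlapped in all 3 complexes, with control 1 highest and anti-LILRB4 2 lowest. Complex V followed the same order at its ends, with 0.18, -0.13 and -0.04 against -0.02, -0.22 and 0.01. Complex IV was the exception, at 0.08, -0.10 and 0.02 in controls and -0.12, -0.20 and -0.24 after treatment, so that its groups did not overlap. Without the tissue isoforms Cox6a2, Cox6b2 and Cox7a1 the 11 remaining complex IV members gave 0.21, -0.13 and -0.08 against -0.07, -0.24 and -0.01, and the groups overlapped.

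Control 1 was the highest of the 6 libraries for 57 of 81 members (70.4%, beside 23.0% of all genes tested), and anti-LILRB4 2 was the lowest for 47 (58.0%, beside 17.2%). By complex, control 1 was highest for 25 of 36 members of complex I, 2 of 4 of complex II, 7 of 9 of complex III, 11 of 14 of complex IV and 11 of 17 of complex V. Neutrophil markers were also highest in control 1 (1298 CPM) and, among the treated libraries, in anti-LILRB4 2 (1072 CPM), which was the lowest library for the members. Among controls and among treated libraries, monocyte (89.8 and 67.2 CPM) and B cell markers (142 and 150 CPM) were highest in these libraries too. Microglial markers ran the other way, lowest in control 1 (40735 CPM) and highest in anti-LILRB4 2 (43841 CPM). So did endothelial markers (11.3 and 24.9 CPM). Oligodendrocyte markers ran from 125 to 144 CPM in controls and from 159 to 171 CPM after treatment, without overlap. T and NK cell markers were highest in control 1 and, among treated libraries, in anti-LILRB4 3. Erythrocyte markers reached 34.9 CPM in anti-LILRB4 2, beside at most 1.04 CPM elsewhere. With the neutrophil marker level entered into the fit, the members' median was -0.12. At an unadjusted edgeR p under 0.05, 1 member was then higher and 0 lower, with a smallest adjusted p of 0.978. Relative to the control mean (log2), the marker level was 0.65, -0.46 and -0.19 in controls and -2.86, -0.28 and -2.58 after treatment. The level thus varied partly with treatment, and this fit cannot cleanly separate them. The other cell types were not entered, and a link of any of them to the members was not tested.

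**Figure D2:**
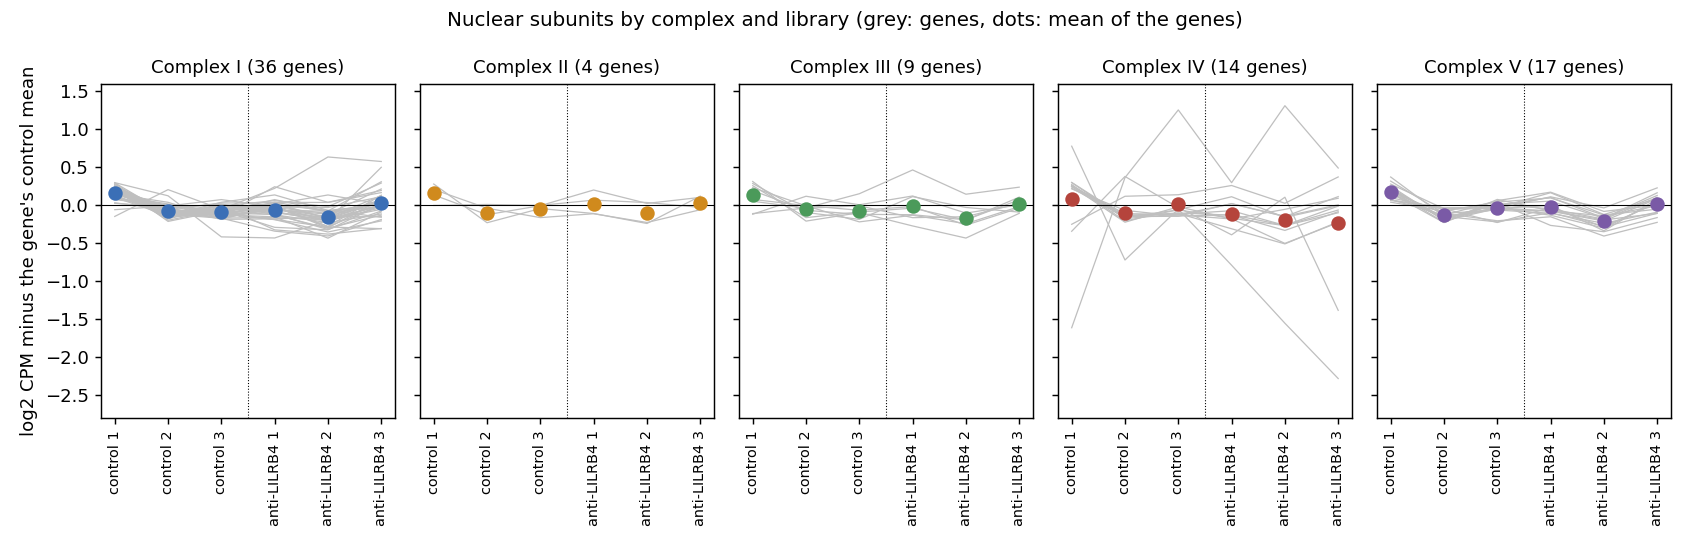
Level of each tested member in the 6 libraries, as log2 CPM minus the gene's control mean (y axis), in a panel per complex, with grey lines for genes and dots for the mean over genes. Control 1 is the highest dot in every panel, and complex IV alone has all treated dots below all control dots. Without the tissue isoforms Cox6a2, Cox6b2 and Cox7a1, the complex IV groups overlap.

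Within complex I, the core subunits that carry electrons and the accessory subunits around them were counted apart. Of the 7 core subunits, 5 were higher and 2 lower (median 0.02), and of the 29 accessory subunits, 4 were higher and 25 lower (median -0.09). Ndufs1, the largest iron-sulfur subunit, had 79.3, 68.3 and 72.9 CPM in controls and 58.5, 56.3 and 59.2 CPM after treatment. All treated values lay below all controls, with means of 73.5 ± 5.53 against 58.0 ± 1.54 CPM (SD, n = 3) and a log2 fold change of -0.34 (SE 0.12, edgeR adjusted p 0.515). Exons of Ndufs1 overlap those of Eef1b2 and Ino80dos. Ndufv1, which binds NADH, had 93.3, 87.8 and 93.1 CPM in controls and 93.5, 93.6 and 102 CPM after treatment. The groups did not overlap, but by a margin far smaller than the spread within them, and the log2 fold change was 0.08 (SE 0.11).

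The other core subunits described overlapped between groups. Ndufv2, an iron-sulfur subunit beside Ndufv1, had a log2 fold change of -0.13 (SE 0.13). Those of Ndufs3 and Ndufs7, of the arm that leads electrons to ubiquinone, were both 0.02 (SE 0.11 and 0.12), and that of the iron-sulfur subunit Ndufs8 was 0.05 (SE 0.10).

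Among accessory subunits, Ndufa10, whose fold resembles that of nucleoside kinases, was the member highest with treatment relative to its error. It had 31.5, 40.2 and 33.6 CPM in controls and 40.7, 54.2 and 52.0 CPM in treated libraries, with means of 35.1 ± 4.55 and 49.0 ± 7.25 CPM (SD, n = 3). The groups did not overlap, control 2 and anti-LILRB4 1 being close, and the log2 fold change was 0.48 (SE 0.16, edgeR unadjusted p 0.0130, adjusted p 0.506), a 1.40-fold difference. Its direction was opposite to that of most accessory subunits, and it lies on chromosome 1 at 92439010 to 92473860 (GENCODE M21, GRCm38, minus strand). Ndufa1, a small membrane subunit needed for assembly, had 128, 105 and 104 CPM against 98.1, 91.6 and 90.2 CPM (log2 fold change -0.27, SE 0.12). Ndufb4, of the membrane arm, had 66.2, 52.9 and 49.5 CPM against 43.9, 42.0 and 48.9 CPM (-0.32, SE 0.15). Ndufa12, of the matrix arm, had 130, 111 and 107 CPM against 101, 90.3 and 99.97 CPM (-0.25, SE 0.12). In these 3 genes every treated library lay below every control, and edgeR's adjusted p was 0.623, 0.624 and 0.632. Without control 1 their log2 fold changes were -0.16, -0.19 and -0.17, and without control 3 they were -0.32, -0.41 and -0.31.

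Complex II showed no shared direction. Sdha, the flavoprotein that oxidises succinate, had 266, 269 and 267 CPM in controls and 280, 274 and 262 CPM after treatment, a log2 fold change of 0.02 (SE 0.09), which is the smallest standard error of any tested member. Sdhb, the iron-sulfur subunit, had 171, 143 and 155 CPM against 179, 158 and 167 CPM (0.11, SE 0.11). The membrane anchors Sdhc and Sdhd had log2 fold changes of -0.14 (SE 0.12) and -0.09 (SE 0.15). Sdhc ran from 169 to 219 CPM in controls and from 162 to 182 CPM in treated libraries, and Sdhd from 165 to 235 and from 164 to 210 CPM. All 4 genes overlapped between groups.

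In complex III, Cyc1, the cytochrome c1 that passes electrons to cytochrome c, had 55.9, 58.8 and 67.0 CPM in controls and 83.3, 66.7 and 71.1 CPM after treatment (log2 fold change 0.28, SE 0.13, edgeR adjusted p 0.636). The groups overlapped only between control 3 and anti-LILRB4 2. Uqcrh, the hinge protein that binds cytochrome c1, had 361, 251 and 272 CPM against 241, 215 and 270 CPM (-0.28, SE 0.15, adjusted p 0.672). Control 1 was far above the other controls, and without it the log2 fold change was -0.11, while without control 2 it was -0.38. Uqcrb, an accessory subunit, and Uqcrfs1, the Rieske iron-sulfur protein, had log2 fold changes of -0.14 (SE 0.13) and 0.01 (SE 0.14). Cycs, the mobile carrier between complexes III and IV, had 64.9, 51.9 and 52.8 CPM against 51.5, 47.2 and 58.1 CPM (-0.11, SE 0.14).

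Complex IV held the member with the largest fold change. Cox6a2, the isoform of subunit 6a known from heart and skeletal muscle, had 47.7, 16.9 and 26.9 CPM in controls and 16.1, 9.44 and 5.68 CPM after treatment. All treated libraries lay below all controls, though control 2 and anti-LILRB4 1 were nearly level, and the control values spread widely. The means were 30.5 ± 15.8 and 10.4 ± 5.26 CPM (SD, n = 3), a 2.93-fold lower level after treatment (log2 fold change -1.55, SE 0.42, edgeR unadjusted p 0.00436, adjusted p 0.432). The adjusted p was 0.228 with DESeq2 and 0.238 in the authors' deposited table. The edgeR log2 fold change was -1.07 without control 1 and -2.01 without anti-LILRB4 1. Without the filter on low counts edgeR called Cox6a2 (adjusted p 6.58e-10), as it then called 300 of 35404 genes. Cox6a2 lies on chromosome 7 at 128205435 to 128206387 (GENCODE M21, GRCm38, minus strand) and is overlapped on the other strand by Itgad, which had 5 to 36 reads per library, whereas Cox6a2 had 234 to 2111.

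Cox6a1, the isoform found in most tissues, had 330, 258 and 255 CPM in controls and 282, 251 and 280 CPM after treatment (-0.05, SE 0.12). As a share of the reads of both isoforms, Cox6a2 made up 12.6% (95% exact Clopper-Pearson interval 12.1 to 13.2), 6.14% (5.70 to 6.61) and 9.53% (9.02 to 10.1) in controls. In treated libraries it made up 5.39% (5.02 to 5.79), 3.62% (3.33 to 3.93) and 1.99% (1.75 to 2.26). Every treated share was lower than every control share. The libraries of each group differed from one another by more than these intervals, which cover counting error only and treat reads as independent molecules.

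**Figure D3:**
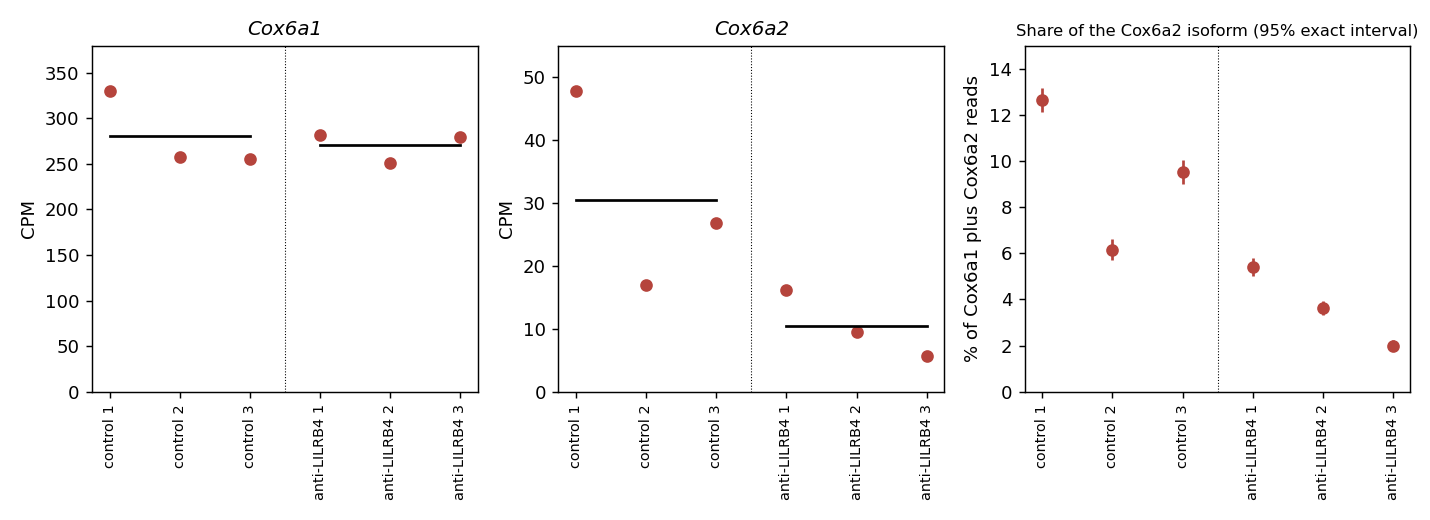
CPM of Cox6a1 (left) and Cox6a2 (middle) per library with the group mean as a line, and Cox6a2 reads as a percent of the reads of both isoforms (right) with 95% exact intervals. Cox6a1 overlaps between groups, while the Cox6a2 share runs from 6.14% to 12.6% in controls and from 1.99% to 5.39% after anti-LILRB4.

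Other tissue isoforms were rare. Cox7a1, the muscle isoform of subunit 7a, had 3, 16 and 34 reads in controls and 17, 46 and 18 reads after treatment, at most 1.07% of the reads of Cox7a1 and Cox7a2 (log2 fold change 0.39, SE 0.85). Cox6b2, the testis isoform of subunit 6b, had 1.70, 2.83 and 2.12 CPM against 1.64, 2.33 and 0.801 CPM (-0.47, SE 0.46), at most 1.79% of the reads of Cox6b1 and Cox6b2. The groups of both genes overlapped, and edgeR's adjusted p was 0.941 for Cox7a1 and 0.830 for Cox6b2.

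Of the 5 members that did not pass the filter, Cox4i2, the isoform of subunit 4 known from lung, had 10 reads in control 2 and 0 in the other libraries. Cox8b, of muscle, had 4, 2 and 0 reads in controls and 9, 10 and 14 reads after treatment. Cox7b2, Cox8c and a second gene model named Atp5o had 0 reads in all libraries. In a library with 0 reads, a count of 0 allows up to 3 reads, or 0.0526 to 0.0744 CPM by library, for counting error only.

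Among the other complex IV subunits, Cox7c, a small membrane subunit, had 168, 127 and 130 CPM in controls and 113, 98.8 and 121 CPM after treatment. The groups did not overlap, control 1 was far above the other controls, and the log2 fold change was -0.35 (SE 0.14, edgeR unadjusted p 0.0288, adjusted p 0.566). Without control 1 it was -0.21, and without control 2 it was -0.42. Cox7a2 had 126, 90.5 and 104 CPM against 93.4, 74.6 and 90.2 CPM (-0.31, SE 0.15, or -0.18 without control 1 and -0.41 without control 2). Cox5a, a subunit on the matrix side, had 26.2, 33.9 and 34.4 CPM against 37.4, 31.8 and 40.4 CPM (0.21, SE 0.16) and was the only member outside the tissue isoforms of this complex with a positive fold change. Control 1 was the lowest library for Cox5a. Log2 fold changes were -0.19 (SE 0.11) for Cox4i1, -0.19 (SE 0.13) for Cox8a, -0.13 (SE 0.15) for Cox7b and -0.02 (SE 0.14) for Cox6b1, all with overlapping groups. Without control 1 these were -0.07, -0.05, 0.033 and 0.15. Without control 2 those of Cox4i1, Cox8a and Cox7b were -0.26, -0.26 and -0.21, and without control 3 that of Cox6b1 was -0.09.

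In complex V, the F1 head that makes ATP was level between groups, with 3 of 5 subunits higher and a median of 0.02. The catalytic beta subunit Atp5b had 399, 371 and 372 CPM in controls and 426, 349 and 403 CPM after treatment (0.05, SE 0.10). The alpha subunit Atp5a1 and the rotor subunit Atp5c1 had log2 fold changes of -0.03 (SE 0.10) and 0.02 (SE 0.11). Of the peripheral stalk, which holds the head in place, 3 of 4 tested subunits were lower, and Atp5pb had 300, 271 and 272 CPM against 303, 274 and 329 CPM (0.10, SE 0.10). Of the 5 small membrane subunits, 4 were lower (median -0.14). Among them Atp5k had 102, 75.8 and 70.8 CPM against 73.5, 61.6 and 69.8 CPM (-0.28, SE 0.16), and Atp5l had 76.0, 56.7 and 67.7 CPM against 55.1, 52.0 and 59.2 CPM (-0.27, SE 0.14). Without control 1 these were -0.10 and -0.17. Atp5k was -0.38 without control 3, and Atp5l was -0.37 without control 2. The groups of all 17 tested members overlapped.

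The c-ring, the rotor through which protons pass, is built from a protein that Atp5g1, Atp5g2 and Atp5g3 each encode with the same mature sequence. Per base of exon, Atp5g2 made up 53.7% to 56.5% of the 3 genes over the 6 libraries, Atp5g3 32.1% to 34.4% and Atp5g1 10.9% to 12.9%. Their log2 fold changes were -0.15 (SE 0.11), -0.08 (SE 0.12) and -0.09 (SE 0.15). The share of Atp5g2 was 54.9% to 56.5% in controls and 53.7% to 54.6% after treatment, without overlap, while the shares of Atp5g1 and Atp5g3 overlapped between groups. As a share of reads, Atp5g2 made up 41.0% to 43.0% in controls and 39.7% to 41.6% after treatment, and the groups overlapped. Atp5g1 made up 24.3% to 28.0% of reads over the 6 libraries. Its exon union is 4912 bases, beside 1675 for Atp5g2 and 2181 for Atp5g3, so its share depends on the length used.

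Levels of different genes were compared as CPM per kilobase of exon, the union of the exons of all transcripts (GENCODE M21), as the mean of the 6 libraries. The medians were 63.8 for complex I, 68.9 for complex II, 83.9 for complex III, 85.7 for complex IV and 63.0 for complex V, while Cycs stood at 16.0. On this length the most abundant were Cox6a1 (393) and Cox4i1 (373), which is the main form of subunit 4. Next within their complexes came Ndufa1 (245) and Ndufa2 (231), Uqcrh (217) and Uqcr11 (187), Atp5c1 (176) and Atp5a1 (142), and Sdhd (154) and Sdhb (72.5). The lowest tested member of complex I was Ndufb2 (2.32), whose exons overlap those of Braf, Gm16272 and Gm42420. Dividing by the longest transcript instead gave medians of 79.2, 112, 140, 115 and 115 for complexes I to V, so that the order of the complexes depended on the length used. The order of genes did too: Cox4i1 (755) then stood above Cox6a1 (445), Ndufc2 (244) above Ndufa2, Uqcrb (214) above Uqcr11 (198), and Atp5g2 (233) and Atp5h (225) led complex V.

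**Figure D4:**
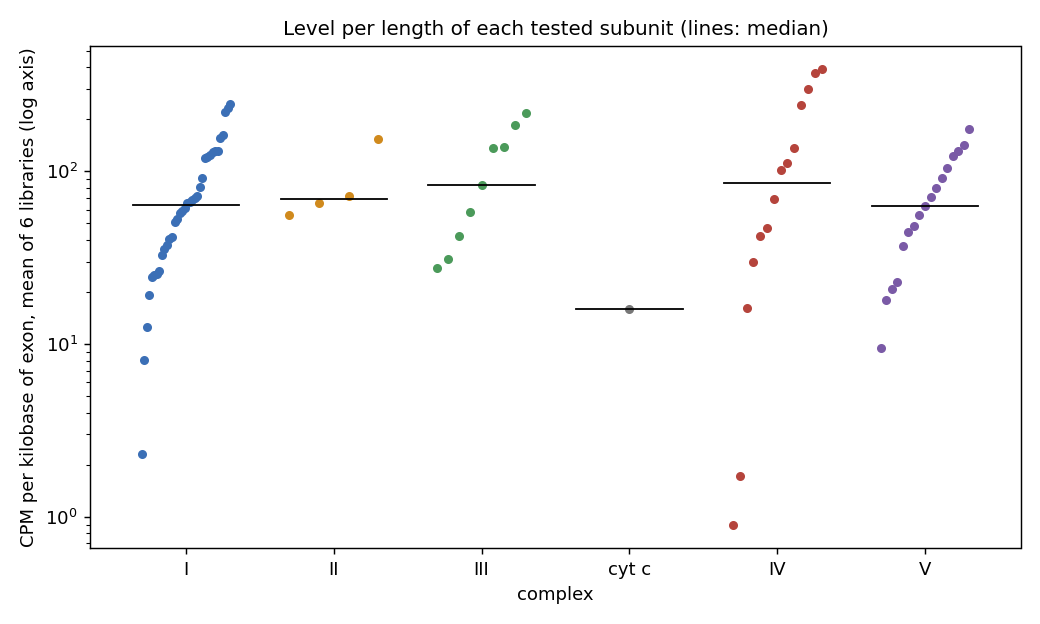
Mean CPM per kilobase of exon over the 6 libraries (log axis) of the 81 tested members by complex, with the median as a line. Medians of the 5 complexes lie between 63.0 and 85.7, and complex IV spans the widest range, from Cox7a1 (0.890) to Cox6a1 (393).

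The longest transcripts of the members ran from 419 to 6310 bases, with a median of 1046 beside 2594 over all genes tested. Across genes, which are not independent replicates, the log2 fold change and this length had a Spearman rho of 0.32 over the 81 members and 0.14 over 18174 genes. Among the 40 shorter members 36 were lower and 4 higher (median -0.13), and among the 41 others 25 were lower and 16 higher (median -0.03). Without control 1 these medians were -0.01 and 0.05, and rho over the members was 0.28. A fit with offsets per library used GC content and the length of the exon union instead of the longest transcript. Its median over all members was -0.03, with 54 lower and 27 higher.

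**Figure D5:**
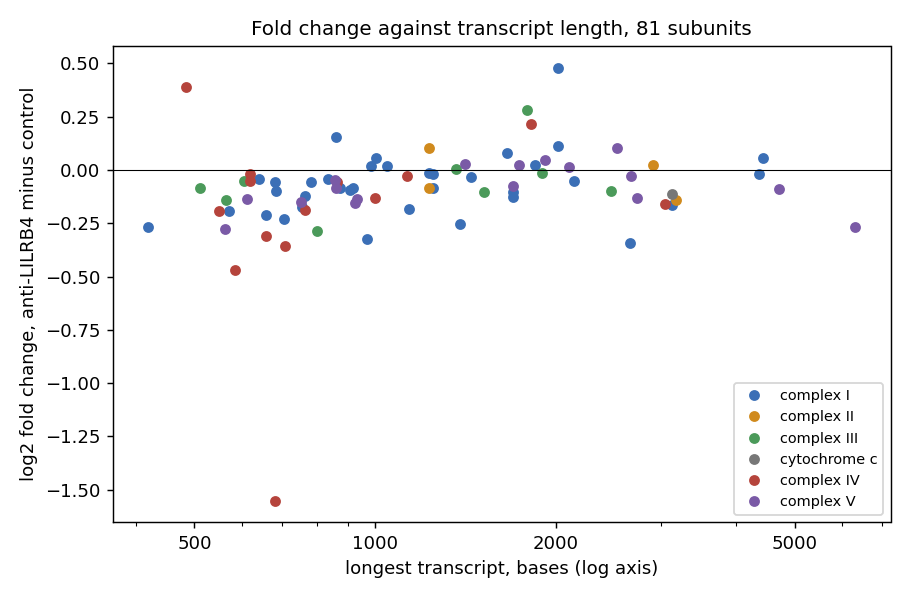
Log2 fold change (anti-LILRB4 minus control) against the length of the longest transcript (log axis) for the 81 tested members, coloured by complex. Most members under 1046 bases lie below zero, and Cox6a2 lies apart at -1.55.

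The assembly factors, proteins that build the complexes without being part of them, were also not called. Of 51 listed, 49 were tested, 18 were higher and 31 lower (median -0.05), and edgeR called 0. At an unadjusted edgeR p under 0.05, 1 was higher and 0 were lower, beside 4.12% and 3.91% of all genes tested. DESeq2 and limma-voom called 0, beside 0.928% and 0 of all genes. The higher gene was Foxred1, a complex I assembly factor, at 40.4, 32.9 and 38.6 CPM in controls and 44.3, 46.9 and 53.0 CPM after treatment (0.37, SE 0.14, edgeR adjusted p 0.561). The smallest p for complex II was that of Sdhaf2 (0.35, SE 0.19), which helps attach flavin to Sdha, and for complex III that of Bcs1l (-0.26, SE 0.19), which inserts the Rieske protein. For complex IV it was Pet100 (-0.32, SE 0.17), and for complex V it was Atpaf1 (-0.13, SE 0.20), a chaperone of the F1 head.

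The 13 subunits encoded by mitochondrial DNA were lower in 11 cases, with a median log2 fold change of -0.42 beside -0.09 for the nuclear members. edgeR called 0 of them (smallest adjusted p 0.386). At an unadjusted edgeR p under 0.05, 8 were lower and 0 higher, beside 3.91% and 4.12% of all genes tested. These 13 genes are not independent replicates. Genes of the mitochondrial genome together took 3.73% to 4.69% of counts in controls and 2.80% to 3.29% after treatment. Without the filter on low counts edgeR called mt-Cytb (adjusted p 0.0261) and mt-Atp6 (adjusted p 0.0337) among the genes of this group named here. DESeq2 called 3 of the 13, beside 0.928% of all genes. They were mt-Cytb of complex III (edgeR log2 fold change -0.42, SE 0.07, DESeq2 adjusted p 0.0111), mt-Atp6 of complex V (-0.49, SE 0.12, DESeq2 adjusted p 0.0202) and mt-Co2 of complex IV (-0.45, SE 0.12, DESeq2 adjusted p 0.0401). In complex I the smallest p was that of mt-Nd1 (-0.35, SE 0.08, edgeR adjusted p 0.426). The difference between mitochondrially and nuclear-encoded subunits was not tested. As levels per library, mitochondrially encoded complex IV stood at 0.25, -0.17 and -0.08 in controls and -0.30, -0.52 and -0.44 after treatment, so its groups did not overlap, as was also the case for nuclear complex IV with its tissue isoforms. The groups of mitochondrially encoded complexes I, III and V did not overlap either, while those of nuclear complexes I, II, III and V did.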

How the data were processed

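RNA of 6 microglial libraries, 3 per group by the sample titles, was analysed from the authors' deposited tables. The first gives raw counts of reads for each Ensembl identifier. Per the file headers, the second deposited table holds the authors' log2 fold changes, p-values and adjusted p-values, a score (fold change over its error) and a signal (mean normalized count). Per the submitters' processing notes, DESeq2 1.38.3, Salmon, featureCounts of Subread and STAR were used, in unstated roles. Which build and annotation were used is not given in the sources used here. Only 1 of 82 member rows had the start that GENCODE M21 gives, so coordinates and lengths are those of GENCODE M21, joined by Ensembl identifier.

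Of 55780 rows, 287 repeats with identical counts were dropped. The rule matched 88 rows and 86 genes, as Ndufb4 stood in 3 rows. edgeR 4.0.16 (R 4.3.3) was run on all genes with filterByExpr (minimum count 10), TMM scaling and a quasi-likelihood test for treatment alone, with Benjamini-Hochberg adjustment over 18210 genes. CPM was computed on TMM-scaled totals, on the log2 scale with 2 as prior count. Fold changes are treated minus control. DESeq2 1.42.0 and limma 3.58.1 (voom) were alternatives, as were other scalings and filters, a replicate block, a length and GC spline (4 degrees of freedom), a neutrophil marker covariate and leaving out each library. The fit was tested on simulated data. Figures were drawn with matplotlib 3.10.9.

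Genes named were, per complex, the 2 with the smallest p in each direction, those with groups not overlapping first, the 2 most abundant per length, isoform pairs and c-ring genes, all Sdh genes, Cycs, the core of complex I (of which 1 is not reported here), and the smallest p of each other list. Ndufa12 and Ndufb4, Ndufb2 and the 3 rarest isoforms were added to account for members. The members and lists were chosen with earlier results of these data known.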

Additional observations from a re-analysis of the deposited data

How the results depend on the processing

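Over 17 alternatives, the number of members called stayed at 0 higher in all and at 0 lower in all but 1: without the filter on low counts edgeR called 1 member lower, Cox6a2 (log2 fold change -1.55, adjusted p 6.58e-10). The number lower at an unadjusted p under 0.05 ranged from 0 (neutrophil covariate) to 8 (protein-coding genes only) against 3. Leaving out 1 library gave medians over the members between -0.14 and 0.02, positive without control 1. Levels per length with the longest transcript had medians of 79.2, 112, 140, 115 and 115 for complexes I to V. Some fold changes changed sign under some settings, of which the cause was not tested. Not all of them were near zero: the main fit gave 0.39 for Cox7a1, -0.26 for Bcs1l and 0.21 for Cox5a. Upper quartile scaling gave -0.012 for Ndufs3, -0.012 for Ndufs7, -0.0066 for Sdha, -0.0043 for Atp5c1 and -0.023 for Uqcrfs1. Protein-coding genes alone gave -0.0028 for Ndufs3, -0.0043 for Ndufs7 and -0.015 for Uqcrfs1, and a CPM of at least 1 in 3 libraries gave -9.05e-05 for Uqcrfs1. Length and GC correction gave -0.0065 for Ndufs3, -0.021 for Ndufs7, 0.056 for Cox6b1, 0.0037 for Cox7b, -0.0068 for Atp5b and 0.015 for Uqcrb. The neutrophil covariate gave -0.044 for Ndufs3, -0.092 for Ndufs7, -0.069 for Cox5a, -0.10 for Atp5b, -0.14 for Atp5c1, 0.014 for Bcs1l and -0.17 for Uqcrfs1. Leaving out 1 library gave -0.029 to 0.056 for Ndufs3, -0.19 to 0.065 for Sdhd, -0.13 to 0.088 for Uqcr11, -0.12 to 0.081 for Cox6a1, -0.094 to 0.15 for Cox6b1, -0.11 to 1.22 for Cox7a1, -0.21 to 0.033 for Cox7b and -0.18 to 0.045 for Atp5g1. For other genes it gave -0.15 to 0.021 for Atp5g3, -0.25 to 0.062 for Atpaf1, -0.053 to 0.071 for Uqcrfs1, -0.016 to 0.13 for Atp5b, -0.029 to 0.12 for Atp5c1, -0.092 to 0.029 for Atp5a1 and -0.090 to 0.090 for Ndufs7. With the replicate block edgeR called 0 members (median -0.08, 5 lower at an unadjusted p under 0.05). Deviations from the group means had correlations of 0.01, 0.03 and -0.01 between same-numbered libraries and of -0.06 to 0.04 between others. Deviations from a mean of 3 libraries are tied to each other, so these values do not settle whether libraries were paired. The sample titles give only a number. Depth limits the rare isoforms Cox4i2, Cox7a1 and Cox8b, which had at most 46 reads in a library.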

Other observations

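Regulators of mitochondrial gene expression and enzymes of the tricarboxylic acid cycle, which feeds the chain with NADH and succinate, were read from the same edgeR fit. Of 14 regulators 13 were tested, 9 were higher and 4 lower (median log2 fold change 0.06), and edgeR and DESeq2 called 0. At an unadjusted edgeR p under 0.05, 1 was higher and 0 were lower, beside 4.12% and 3.91% of all genes tested. Ppargc1b, a coactivator of mitochondrial genes, had 1.40, 2.85 and 0.706 CPM in controls and 3.08, 5.27 and 4.78 CPM after anti-LILRB4 (1.41, SE 0.49, edgeR adjusted p 0.523). All treated libraries lay above all controls at these low levels. The factors whose letters were searched in the promoters had log2 fold changes of 0.06 (SE 0.14) for Nrf1, 0.06 (SE 0.16) for Gabpa and 0.00 (SE 0.23) for Yy1, and were chosen for mention after their values were seen.

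Of the 13 cycle enzymes 9 were higher and 4 lower (median 0.05), and edgeR and DESeq2 called 0. At an unadjusted edgeR p under 0.05, 0 were higher and 0 lower, beside 4.12% and 3.91% of all genes tested. Idh3a, the catalytic subunit of NAD-dependent isocitrate dehydrogenase, had 39.5, 43.7 and 41.3 CPM in controls and 50.2, 46.7 and 51.6 CPM after treatment (0.25, SE 0.12, edgeR adjusted p 0.641). Its treated libraries all lay above its controls. Sdha and Sdhb, which belong to both the cycle and complex II, had log2 fold changes of 0.02 and 0.11.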
